A study of Mus musculus with 6 samples.

Results

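In all, 9 genes of the cyclic AMP (cAMP) pathway were followed in cultured oligodendrocyte precursors (OPCs), dividing glial cells from which the myelin-forming oligodendrocytes arise. They were chosen by symbol: the adenylyl cyclase gene Adcy9, the protein kinase A gene Prkaca, the phosphodiesterase genes Pde4b, Pde4d and Pde7b, the transcription factor genes Creb1 and Crem, and the responsive genes Sik1 and Per1. All 9 were found among 31266 genes quantified from the deposited assemblies, and all 9 were among the 12045 genes tested. RNA-seq was made from 3 libraries of Gde3 KO cells and 3 libraries of wild-type (WT) cells, both of the C57BL/6 background. The cells were taken from spinal cords at postnatal day 0.5 and pulled down on magnetic beads through A2B5, a ganglioside epitope that marks glial precursors. All 6 cultures, KO and WT alike, spent 16 h in medium for proliferation that held 5 µM forskolin, 10 ng/mL PDGF and 10 ng/mL CNTF. Forskolin activates adenylyl cyclases directly, so every value below was measured under that stimulus, and no culture without it was analysed here. The labels give neither the KO allele nor whether libraries came from separate animals or litters, so the p-values measure nothing beyond how much these libraries scatter, and that scatter may be technical.

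Adenylyl cyclases make cAMP from ATP, and the catalytic subunits of protein kinase A are released when cAMP binds their regulatory subunits. The kinase phosphorylates CREB, which then drives genes that carry cAMP response elements in their promoters. Phosphodiesterases break cAMP down, and several of them, with the inhibitory short form of Crem called ICER and the kinase gene Sik1, are themselves induced by cAMP and feed back on the pathway. Raised cAMP in oligodendrocyte lineage cells is known for its effects on their proliferation and maturation.

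GDE3, the product of Gdpd2, cuts surface proteins off their lipid anchor at the cell membrane. Exon 9 of Gdpd2 was assembled over 0% of its length in each KO library and over 100% in each WT library. WT replicate 1 held little else of the gene: exons 1 to 7 and 11 to 16 were at 0% there, and exons 8 and 10 were assembled over 19.5% and 21.9%. The gene was not absent from KO: exons 2 to 5, 11 and 12 were assembled over 100% in each KO library, and exon 10 over 0%. The OPC markers Pdgfra, Cspg4, Olig1, Olig2, Sox10, Ptprz1, Gpr17, Lhfpl3, Nkx2-2 and Bcan were assembled in all 6 libraries, with summed levels of 1247 to 1508 FPKM in KO and 1119 to 1624 FPKM in WT. FPKM is the authors' fragment density per length of transcript and size of library. The number of reads is unknown, and the coverage behind 1 unit of FPKM put relative depth at 0.882 to 0.988 in KO and 0.759 to 1 in WT. WT replicate 1, the shallowest, was assembled in shorter pieces (median transcript 438 nt), against medians of 1395, 1173 and 1830 nt in KO replicates 1 to 3 and 1496 and 1816 nt in WT replicates 2 and 3. Microglia markers had summed levels of 92.4 to 173 FPKM in KO and 51.7 to 72.5 FPKM in WT. All 7 tested of 8 were on the higher side and none passed the test across genes, although 4 had an unadjusted p under 0.05. Aif1, one of the markers that define microglia, was at 0 in WT replicate 2. The part of these other cells in the results below was not tested, and in such bulk samples fewer cells of a type and less RNA per cell cannot be told apart.

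The gene level was the FPKM of assembled transcripts averaged over the exonic bases that no other gene shares. None of the 9 genes passed the test for a difference between KO and WT. Their log2 differences, KO minus WT on log2(FPKM + 1), ran from -0.18 for Creb1 to 0.09 for Sik1, with 2 genes higher and 7 lower in KO. The median of the 9 was -0.04, against -0.0055 over all genes tested. The limma fit across genes gave adjusted p = 0.9999 for each of the 9, and none had an unadjusted p under 0.05, as 195 of the 12045 genes did. Across all genes, 0% were called higher and 0.0083% lower in KO, a single gene (Mettl23). The intervals bound what was seen: the widest 95% bound of any of the 9 was 0.89 on the log2 scale, so larger differences lay outside them. The KO values all fell below the WT values for 2 of the 9, Pde7b and Creb1, where 3.03% of all genes showed this pattern and 2.03% the opposite one. Against the WT library of the same number, KO was lower in all 3 pairs for 3 of the 9, Pde4d, Pde7b and Creb1, and over bases assembled in all 6 libraries for 2, without Creb1. Of all genes, 15.8% and 16.4% showed this.

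**Figure D1:**
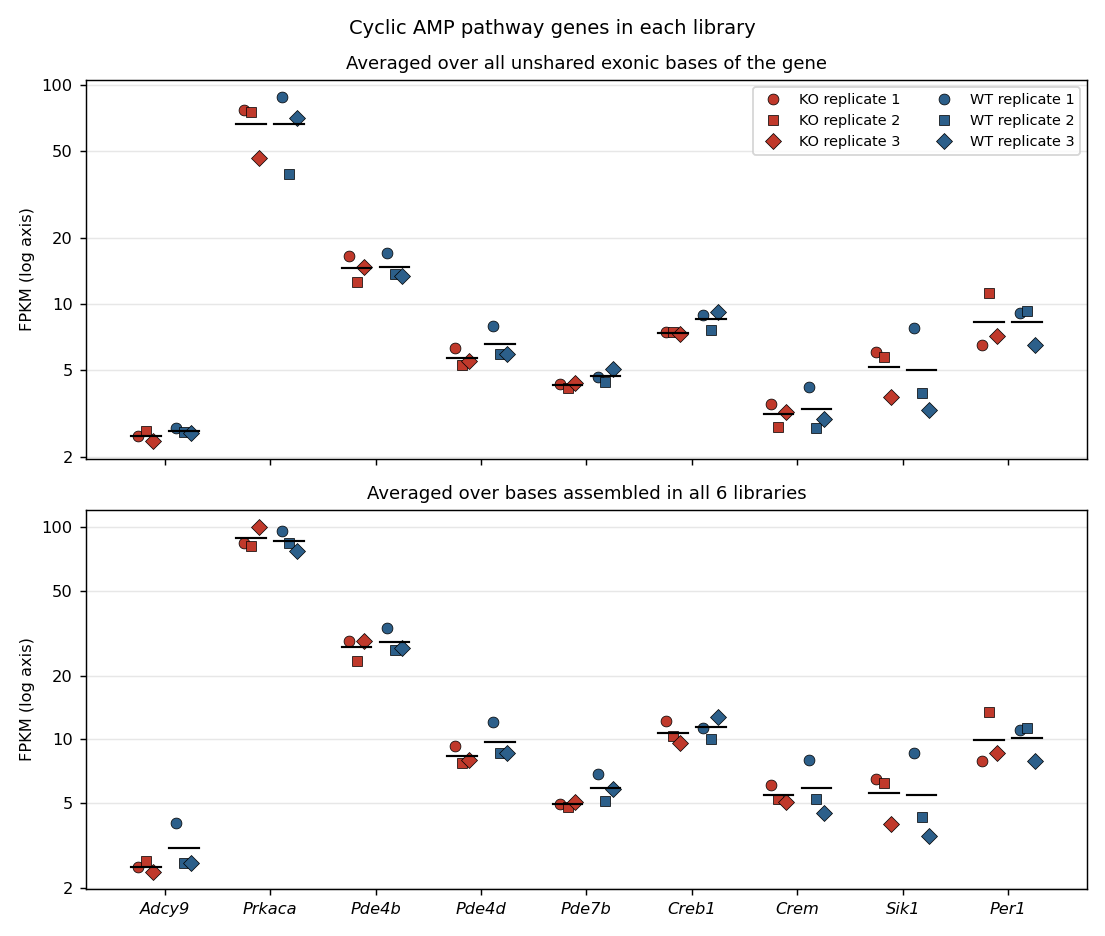
Level of each of the 9 genes in FPKM (log axis) in 3 KO libraries (red, left) and 3 WT libraries (blue, right). Symbols give the replicate number and bars the group means; the upper panel averages over all unshared exonic bases and the lower panel over bases assembled in all 6 libraries. Prkaca in KO replicate 3 and WT replicate 2 are low in the upper panel and not in the lower one.

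Prkaca was by far the highest, with a mean of 65.8 FPKM over the 6 libraries, above 92.7% of the genes tested. Pde4b followed at 14.6 FPKM, then Per1 at 8.26, Creb1 at 7.94, Pde4d at 6.11, Sik1 at 5.06, Pde7b at 4.47, Crem at 3.21 and Adcy9 at 2.56 FPKM. These levels are per length but count unassembled bases as 0, so the order depends on how much of each gene was assembled. The ranges over libraries were separate between Prkaca and Pde4b, between Pde4b and Per1, and between Crem and Adcy9. The neighbours in between overlapped: Per1 was above Creb1 in 3 of 6 libraries and Sik1 above Pde7b in 3 of 6, while Creb1 was above Pde4d in all 6 and Pde7b above Crem in all 6. Over the bases assembled in all 6 libraries, the means were 87.1 FPKM for Prkaca, 28.1 for Pde4b, 11.1 for Creb1, 10.1 for Per1, 9.08 for Pde4d, 5.71 for Crem, 5.53 for Sik1, 5.45 for Pde7b and 2.80 FPKM for Adcy9. Creb1 and Per1 thus changed places, and Crem moved above Sik1 and Pde7b, with overlapping ranges. Prkaca, Pde4b and Adcy9 kept their places on either average, each without overlap with its neighbour.

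Because a gene's average falls where part of it was not assembled, the share of each gene that was assembled was measured and the levels were also taken over bases assembled in all 6 libraries, an alternative added after seeing the data. The share of Prkaca was 46.5% in KO replicate 3 and WT replicate 2 and between 91% and 91.5% in the other 4 libraries. For Adcy9 it was 66.9%, and for Pde7b 67.6%, in WT replicate 1, the lowest of the 6 for each. Creb1 ranged from 60.1% in KO replicate 1 to 80.8% in WT replicate 2. Sik1 and Per1 varied least, at 90.6% to 93.5% and 81.8% to 83.1%. On the shared bases, 2 genes were again higher and 7 lower in KO, with a median of -0.08 against -0.04 over the 11709 genes tested so, and 1 of the 9, Pde7b, had all KO values below all WT values, against 3.45% of all genes, and none had them all above, against 1.51%.

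**Figure D2:**
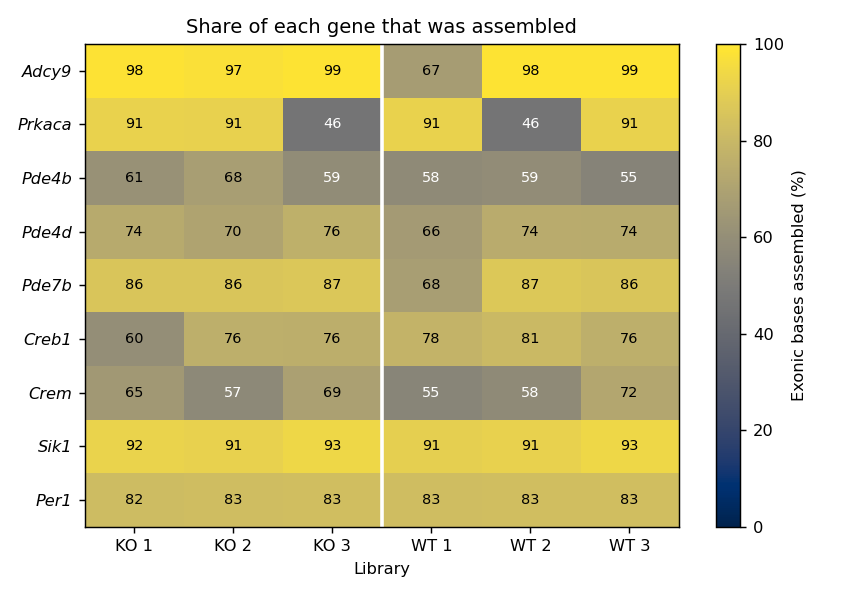
Percentage of the unshared exonic bases of each gene covered by an assembled transcript of 300 nt or more, in 3 KO libraries (left) and 3 WT libraries (right). Prkaca drops to 46.5% in 1 library of each genotype, and Adcy9 and Pde7b are least complete in WT replicate 1.

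Adcy9 (ENSMUSG00000005580.11, chromosome 16, minus strand) encodes a membrane adenylyl cyclase, the one membrane form known to respond little to forskolin. It was at 2.495, 2.62 and 2.35 FPKM in KO and 2.72, 2.58 and 2.57 FPKM in WT. The 6 values lay close together and the groups overlapped. The means were 2.49 ± 0.13 FPKM in KO and 2.62 ± 0.08 FPKM in WT (n = 3 each, ± SD), and the log2 difference was -0.06 (SE 0.12). On bases shared by all libraries it was at 2.52, 2.66 and 2.38 FPKM in KO and 4.03, 2.62 and 2.61 FPKM in WT, with WT replicate 1 above the other 5. In the libraries other than WT replicate 1, the last assembled exon ran 2560 to 2618 nt past the annotated 3′ end.

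Prkaca (ENSMUSG00000005469.10, chromosome 8, plus strand) encodes the alpha catalytic subunit of protein kinase A. It was at 76.6, 74.6 and 46.3 FPKM in KO and 87.8, 39.2 and 70.4 FPKM in WT. One library of each genotype was low, and in these 2 the assembly stopped short, at position -1120 nt relative to the annotated 3′ end. Over the 1151 bases assembled everywhere, out of 2488, the values were 83.8, 81.7 and 99.8 FPKM in KO and 96.0, 84.4 and 76.9 FPKM in WT. No library stood low there, and the groups overlapped. The KO replicate 3 value adds up 3 overlapping pieces, of 49.0, 77.3 and 54.0 FPKM, where each other library held 1 piece. The log2 difference was 0.04 by both averages, with an SE of 0.35 over the whole gene and 0.15 over the shared bases. The 1st of 2 annotated starts was the only one assembled, in all 6 libraries.

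Pde4b (ENSMUSG00000028525.16, chromosome 4, plus strand) encodes a cAMP-specific phosphodiesterase. It was the most abundant phosphodiesterase of the list, at 16.5, 12.6 and 14.6 FPKM in KO and 17.0, 13.6 and 13.4 FPKM in WT. The groups overlapped, and replicate 1 was the highest of each genotype. The means were 14.6 ± 1.95 FPKM in KO and 14.7 ± 2.01 FPKM in WT (n = 3 each, ± SD), with a log2 difference of -0.01 (SE 0.15). Of 7 annotated starts, 5 were reached by a spliced transcript in some library and none in all 6. Transcripts of 15 exons came from start 2 in KO replicates 1 to 3 and WT replicate 2, and from start 3 in KO replicate 3. Transcripts of 10 exons, the short forms, came from starts 5 and 7. In WT replicates 1 and 3 the long transcripts reached no annotated start.

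Short Pde4b transcripts, of 7 to 11 exons, were at 0, 15.1 and 5.70 FPKM in KO and 11.99, 14.8 and 17.3 FPKM in WT. Those of 14 or more exons were at 29.2, 9.99 and 23.9 FPKM in KO and 22.8, 13.01 and 11.49 FPKM in WT. KO replicate 1 held no short transcript, and the short share was otherwise 60.1% and 19.2% in KO and 34.4%, 53.2% and 60.1% in WT. The groups overlapped (exact two-sided permutation test on the share, p = 0.4, where 3 against 3 libraries can reach 0.1 at the least). The assembler divides the reads of shared exons between forms, so a form at 0 is one that was not assembled.

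Pde4d (ENSMUSG00000021699.17, chromosome 13, plus strand) encodes a phosphodiesterase of the same subfamily, whose short forms are known to be induced by cAMP. It was at 6.28, 5.23 and 5.47 FPKM in KO and 7.88, 5.89 and 5.89 FPKM in WT. WT replicate 1 was the highest of the 6 and KO replicate 1 the next, and the groups overlapped. The means were 5.66 ± 0.55 FPKM in KO and 6.56 ± 1.15 FPKM in WT (n = 3 each, ± SD), with a log2 difference of -0.18 (SE 0.15). Of 12 annotated starts, 5 were assembled in some library, and start 5, which leads to 15 exons, and start 11, which leads to at most 10, in all 6. Long Pde4d transcripts of 14 or more exons varied little, at 4.83, 5.72 and 5.22 FPKM in KO and 5.21, 4.88 and 4.74 FPKM in WT. Short ones were at 5.54, 2.71 and 3.61 FPKM in KO and 17.8, 4.67 and 4.83 FPKM in WT, and WT replicate 1 was the highest, with a piece of 11.3 FPKM from start 11 and one of 6.504 FPKM from start 9. In that library the 3′ end lay 1155 nt past the annotated end, against 2500 or 2501 nt in the other 5.

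Pde7b (ENSMUSG00000019990.15, chromosome 10, minus strand) encodes another cAMP-specific phosphodiesterase, insensitive to the PDE4 inhibitor rolipram. It was at 4.31, 4.13 and 4.32 FPKM in KO and 4.64, 4.39 and 5.02 FPKM in WT. All 3 KO values lay below all 3 WT values. The means were 4.25 ± 0.11 FPKM in KO and 4.68 ± 0.32 FPKM in WT (n = 3 each, ± SD). The log2 difference was -0.11 (SE 0.11) over the whole gene and -0.21 (SE 0.14) over the shared bases, with 4.99, 4.78 and 5.09 FPKM in KO against 6.86, 5.13 and 5.82 FPKM in WT. The exact two-sided permutation test gave p = 0.1 on either average, the smallest that 3 against 3 allows, and the limma adjusted p was 0.9999 over the whole gene. The 1st start was assembled in all 6 libraries, and the 2nd in KO replicate 3 at 1.68 FPKM and in WT replicate 2 at 0.94 FPKM.

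Creb1 (ENSMUSG00000025958.14, chromosome 1, plus strand) encodes CREB, the activator that protein kinase A phosphorylates. It was at 7.44, 7.43 and 7.24 FPKM in KO and 8.87, 7.55 and 9.13 FPKM in WT, with all KO values below all WT values. The means were 7.37 ± 0.11 FPKM in KO and 8.52 ± 0.85 FPKM in WT (n = 3 each, ± SD), and the log2 difference was -0.18 (SE 0.11). Over the shared bases this separation was lost, with 12.3, 10.3 and 9.60 FPKM in KO and 11.4, 10.0 and 12.8 FPKM in WT, and the difference was -0.08 (SE 0.14). KO replicate 1, the least completely assembled library for Creb1, was the highest KO library there.

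The forms of Creb1 differ by a coding exon of 42 nt, exon 4 of the annotated transcript (chr1:64559727-64559768, plus strand, mm10), which separates the CREB alpha form from the delta form. It is shown because the libraries differed in whether it was assembled, with the exon in capitals and 20 bases of the neighbouring exons on each side in lower case, from the GENCODE M21 transcript.
Creb1 exon 4: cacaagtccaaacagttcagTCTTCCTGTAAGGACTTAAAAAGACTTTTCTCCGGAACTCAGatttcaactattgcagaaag
The exon was spliced into transcripts in KO replicate 3, at 1.92 FPKM or 19.96% of the transcripts across this position, and in WT replicate 3, at 3.41 FPKM or 26.7%. Transcripts without it were at 21.8, 15.0 and 7.69 FPKM in KO and 17.1, 10.0 and 9.38 FPKM in WT. The skipping form was thus the main one in every library, and the including form was listed in replicate 3 of each genotype only.

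Crem (ENSMUSG00000063889.16, chromosome 18, minus strand) encodes longer forms from its 1st promoter and, from an intronic promoter, ICER, a short repressor induced by cAMP. Whether the longer forms assembled here encode activators or repressors was not examined. Over the whole gene it was at 3.48, 2.72 and 3.20 FPKM in KO and 4.18, 2.72 and 2.97 FPKM in WT. The groups overlapped, with a log2 difference of -0.04 (SE 0.17), and replicate 1 was the highest of each genotype. Of 6 annotated starts, the 1st and the intronic one were assembled, each in all 6 libraries. The intronic start had first exons at 3280949 to 3281132 and 3281688 to 3281769 (mm10).

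Transcripts from the intronic Crem start were at 4.96, 4.41 and 3.64 FPKM in KO and 6.66, 4.85 and 2.98 FPKM in WT. Those from the 1st start were at 2.78, 2.01 and 2.39 FPKM in KO and 4.17, 3.48 and 2.35 FPKM in WT. The intronic start was the higher of the pair in every library. Its share of the pair was 64.1%, 68.7% and 60.4% in KO and 61.5%, 58.2% and 55.9% in WT. The groups overlapped between KO replicate 3 and WT replicate 1 (means 64.4% ± 4.18 in KO and 58.6% ± 2.79 in WT, ± SD over 3 libraries each, exact two-sided permutation p = 0.2). Against the WT library of the same number, the share was higher in KO in all 3 pairs, where an exact test of 3 pairs can go no lower than p = 0.25.

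**Figure D3:**
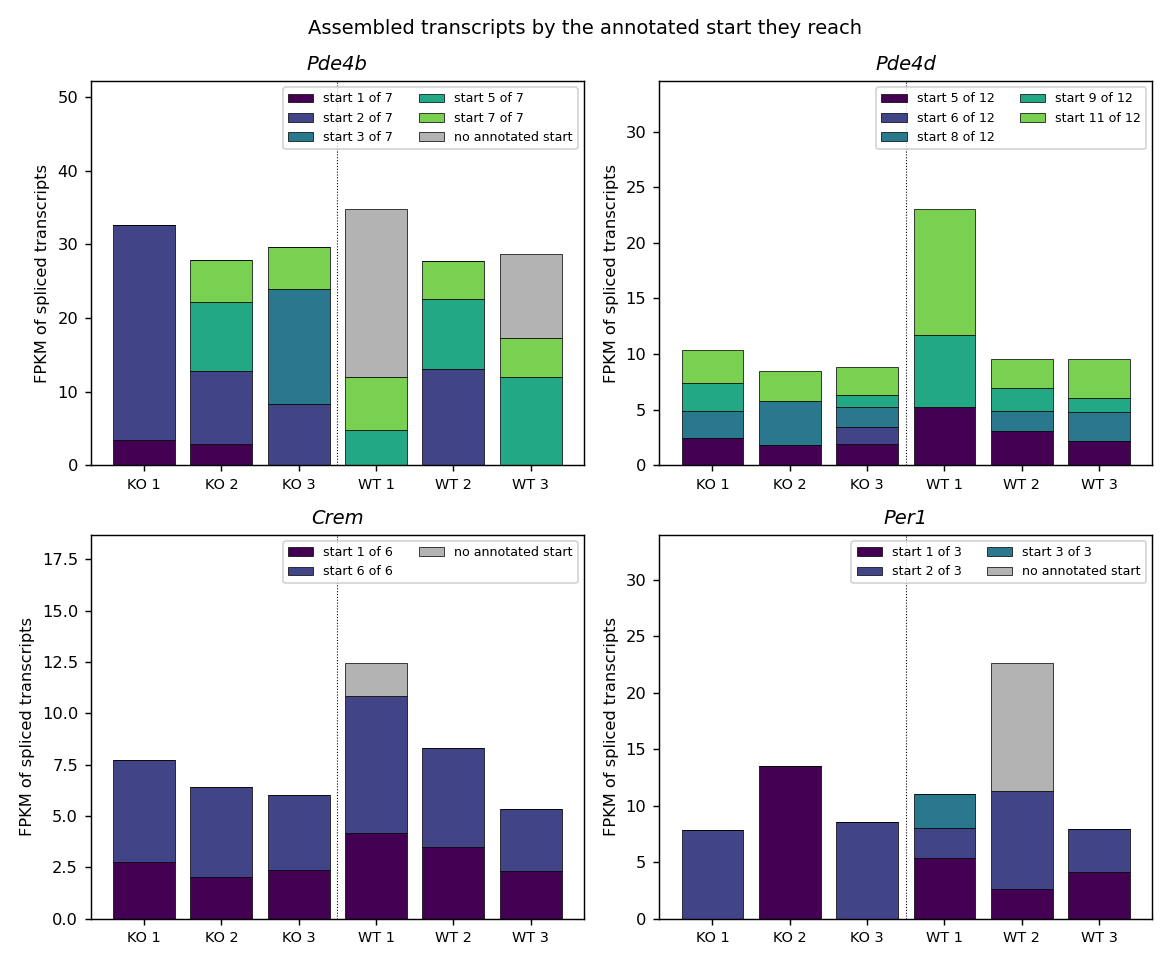
FPKM of spliced transcripts of Pde4b, Pde4d, Crem and Per1, stacked by the annotated start they reach, in 3 KO libraries (left of the dotted line) and 3 WT libraries (right). Grey marks transcripts that reach no annotated start; pieces of 1 gene each add their FPKM, so bar heights are not gene levels. Crem alone of the 4 shows the same starts, 1 and 6, in all 6 libraries.

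Sik1 (ENSMUSG00000024042.7, chromosome 17, minus strand) encodes a salt-inducible kinase that is induced by cAMP and phosphorylates the CREB coactivators, holding them out of the nucleus. It was at 5.99, 5.68 and 3.74 FPKM in KO and 7.74, 3.92 and 3.27 FPKM in WT. The highest library, WT replicate 1, was 2.37 times the lowest, WT replicate 3, and the ratio was 2.46 over the shared bases, the widest spread of the 9 on either average. KO replicates 1 and 2 lay between, and the groups overlapped. The means were 5.14 ± 1.22 FPKM in KO and 4.98 ± 2.42 FPKM in WT (n = 3 each, ± SD), with a log2 difference of 0.09 (SE 0.31).

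Per1 (ENSMUSG00000020893.17, chromosome 11, plus strand) encodes a circadian clock repressor that cAMP and CREB induce. It was at 6.46, 11.2 and 7.15 FPKM in KO and 9.03, 9.24 and 6.51 FPKM in WT. KO replicate 2 was the highest and KO replicate 1 the lowest of the 6, so replicate 1 was not high for this gene. The means were 8.26 ± 2.53 FPKM in KO and 8.26 ± 1.52 FPKM in WT (n = 3 each, ± SD), and the log2 difference was -0.02 (SE 0.23). Of its 3 annotated starts, start 1 had 0, 13.5 and 0 FPKM in KO and 5.41, 2.66 and 4.11 FPKM in WT. Start 2 had 7.90, 0 and 8.61 FPKM in KO and 2.60, 8.64 and 3.86 FPKM in WT, and start 3 was assembled in WT replicate 1 at 3.06 FPKM. Each KO library was thus assembled from a single start, start 2 in KO replicates 1 and 3 and start 1 in KO replicate 2. Each WT library was assembled from several. In WT replicate 2 the pieces from starts 1 and 2 held 7 exons each, and a piece of 16 exons at 11.4 FPKM reached no annotated start. The part of such broken assemblies in the split was not tested. The share of all genes with such a split was not counted, and a start at 0 is one that was not assembled.

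**Figure D4:**
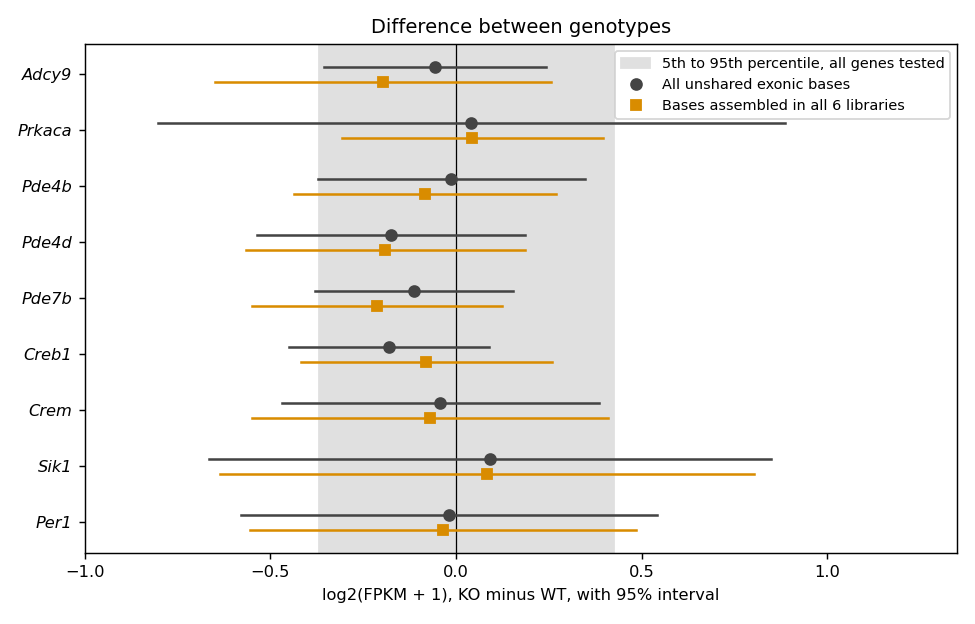
Difference in log2(FPKM + 1), KO minus WT, for the 9 genes with its 95% interval from limma, over all unshared exonic bases (circles) and over bases assembled in all 6 libraries (squares). The grey band spans the 5th to 95th percentile of all genes tested (-0.37 to 0.43). Every point lies inside the band, and every interval crosses 0.

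The promoters were searched for the core of the cAMP response element, TGACG, on either strand, since CREB binds that core. RefSeq windows on build GRCm38.p6, from 250 bases before to 50 bases after a start, were at hand for 7 of the 9 genes, with 12 windows in all. Sik1 and Crem had no window. Among starts assembled here, windows were also lacking for Pde4b starts 1 and 2, Pde7b start 1 and Per1 start 1. None was at hand for any assembled Pde4d start (5, 6, 8, 9 and 11). The windows at Pde4b start 6, Pde4d start 1 and Prkaca start 2 belong to starts that no library assembled. The counts that follow thus do not describe the promoters in use as a set. TGACG stood in 5 of the 12, and in 20.8% of all 32851 windows. The longer TGACGT, which contains it, stood in 3 of the 12 and in 7.51% of all windows. The full palindrome TGACGTCA, which contains both, stood in 0 of the 12 and in 1.79% of all windows. A match is a description of letters and not a measured site. The 3 windows with TGACGT are shown, with the one at Per1 start 2, the start assembled in most libraries, for comparison with its neighbour. Each is written in the gene's direction, with TGACG or its reverse complement CGTCA in capitals.
Adcy9, chr16:4420449-4420748, minus strand: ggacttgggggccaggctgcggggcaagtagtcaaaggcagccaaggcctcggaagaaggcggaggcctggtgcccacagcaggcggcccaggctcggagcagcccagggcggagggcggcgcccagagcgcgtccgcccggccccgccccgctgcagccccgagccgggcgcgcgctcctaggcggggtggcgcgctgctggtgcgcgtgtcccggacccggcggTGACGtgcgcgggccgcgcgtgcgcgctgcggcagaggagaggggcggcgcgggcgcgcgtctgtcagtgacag
Pde4b start 3, chr4:102421305-102421604, plus strand: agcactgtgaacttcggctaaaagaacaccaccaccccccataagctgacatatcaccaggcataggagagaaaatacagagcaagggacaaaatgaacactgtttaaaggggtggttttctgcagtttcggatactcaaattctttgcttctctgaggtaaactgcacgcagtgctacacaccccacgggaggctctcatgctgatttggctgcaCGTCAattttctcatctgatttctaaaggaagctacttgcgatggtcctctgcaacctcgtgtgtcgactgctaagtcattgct
Per1 start 3, chr11:69099902-69100201, plus strand: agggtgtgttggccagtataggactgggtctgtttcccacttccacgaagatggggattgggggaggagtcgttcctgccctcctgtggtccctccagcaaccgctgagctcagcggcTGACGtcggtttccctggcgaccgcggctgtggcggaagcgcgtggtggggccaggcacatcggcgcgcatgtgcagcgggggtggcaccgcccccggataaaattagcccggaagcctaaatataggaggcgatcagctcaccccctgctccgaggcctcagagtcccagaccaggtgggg
Per1 start 2, chr11:69098699-69098998, plus strand: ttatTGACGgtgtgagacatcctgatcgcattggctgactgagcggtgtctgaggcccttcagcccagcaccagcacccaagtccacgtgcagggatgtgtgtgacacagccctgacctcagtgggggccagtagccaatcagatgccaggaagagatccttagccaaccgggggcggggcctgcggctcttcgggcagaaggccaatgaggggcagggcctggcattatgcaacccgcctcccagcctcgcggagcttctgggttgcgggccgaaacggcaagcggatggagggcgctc
The match began at position -24 from the RefSeq start in Adcy9, -34 in Pde4b, -132 at Per1 start 3 and -246 at Per1 start 2. Prkaca had matches to TGACG at -120 and -6, and was assembled from that start in all 6 libraries. Of the starts with TGACGT, the Adcy9 start was assembled in all 6 libraries, Pde4b start 3 in KO replicate 3 at 15.7 FPKM, and Per1 start 3 in WT replicate 1.

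The other genes of the pathway were described by 9 lists holding 100 genes, of which 91 are not among the 9, and 84 of the 100 were tested. None was called in either direction, and 0 had an unadjusted limma p under 0.05, against 1.62% of all genes tested. In KO, 35 were higher and 49 lower, with a median log2 difference of -0.02. Groups did not overlap for 7 of the 84: Pde1b and Pcdh8 were higher in KO, 2.38% against 2.03% of all genes, and Adcy1, Gnal, Pde7b, Prkacb and Creb1 were lower, 5.95% against 3.03%. Over shared bases the log2 differences of Pde1b and Pcdh8 went from 0.31 and 0.12 to 0.07 and 0.015. That of Creb1 went from -0.18 to -0.08. Adcy1, Gnal, Pde7b and Prkacb were at -0.19, -0.24, -0.21 and -0.11 over shared bases. The genes named below are those of highest mean level in each list, and those outside that rule were named after their values were seen.

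Among adenylyl cyclases, 7 of 10 were tested, with 2 higher and 5 lower in KO and a median of -0.06. Adcy6 was the highest, at 10.2 ± 2.94 FPKM in KO and 8.67 ± 0.85 FPKM in WT (n = 3 each, ± SD, as for all list genes). Adcy5 followed at 5.92 ± 0.61 FPKM in KO and 6.38 ± 0.48 FPKM in WT, and Adcy3 at 5.88 ± 0.28 FPKM in KO and 5.47 ± 1.38 FPKM in WT. Adcy8 was at 4.03 ± 1.24 FPKM in KO and 4.24 ± 0.76 FPKM in WT. Over shared bases the log2 difference of Adcy6 turned from 0.18 to -0.03 and that of Adcy3 from 0.11 to -0.24. Adcy9 was the lowest of the 7 in mean level, and none of the forms above it passed the test between genotypes. Adcy1, a calcium-sensitive cyclase, had 3.40, 3.35 and 3.34 FPKM in KO and 4.76, 3.48 and 3.71 FPKM in WT, without overlap.

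The 7 G protein subunits that stimulate or inhibit cyclases were all tested, with 3 higher and 4 lower and a median of -0.08. Gnai2, an inhibitory subunit, was the highest gene of the 9 lists, at 200.99 ± 10.2 FPKM in KO and 192 ± 41.8 FPKM in WT. Gnai3 was at 40.0 ± 3.99 FPKM in KO and 39.7 ± 7.05 FPKM in WT, Gnao1 at 26.2 ± 2.78 FPKM in KO and 27.8 ± 2.99 FPKM in WT, and Gnai1 at 15.0 ± 2.06 FPKM in KO and 17.3 ± 2.44 FPKM in WT. The stimulatory subunit gene Gnas, an imprinted locus with overlapping transcripts, scattered widely on this measure, at 9.96, 1.55 and 5.83 FPKM in KO and 9.55, 21.5 and 0.77 FPKM in WT, and its log2 difference was -0.38 over the whole gene and 0.48 over shared bases.

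Of 16 phosphodiesterase genes for cAMP, 12 were tested, with 2 higher and 10 lower and a median of -0.09. Beside Pde4b, the highest were Pde3b at 7.63 ± 0.30 FPKM in KO and 8.18 ± 0.64 FPKM in WT, and Pde7a at 7.47 ± 0.77 FPKM in KO and 8.30 ± 0.80 FPKM in WT. Pde3a, an enzyme that cGMP inhibits, was at 8.31, 3.59 and 3.24 FPKM in KO and 8.95, 4.50 and 3.92 FPKM in WT, high in replicate 1 of each genotype. Pde10a was at 1.75, 5.13 and 4.39 FPKM in KO and 6.16, 4.81 and 4.23 FPKM in WT, with KO replicate 1 low. Over shared bases it was at 5.64 ± 0.38 FPKM in KO and 6.27 ± 1.76 FPKM in WT, and its log2 difference of -0.42 became -0.11. Pde4c and Pde11a were listed at 0 in all 6 libraries.

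Of 9 genes for kinase A subunits and inhibitors, 8 were tested, with 2 higher and 6 lower and a median of -0.12. Prkar1a, a regulatory subunit, was at 89.0 ± 33.4 FPKM in KO and 95.7 ± 22.4 FPKM in WT, and Prkar2a at 41.0 ± 3.99 FPKM in KO and 43.5 ± 5.46 FPKM in WT. The kinase inhibitor gene Pkia was at 25.1 ± 3.15 FPKM in KO and 29.5 ± 6.46 FPKM in WT. Prkacb, the beta catalytic subunit, had 24.2, 22.1 and 22.9 FPKM in KO and 25.2, 25.0 and 24.3 FPKM in WT, without overlap and with a log2 difference of -0.10. Prkaca exceeded it in each library.

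The 10 anchoring proteins tested of 11 had 3 higher and 7 lower and a median of -0.04. Akap8, a nuclear anchoring protein, was at 25.2 ± 6.96 FPKM in KO and 27.9 ± 5.66 FPKM in WT, and Akap1, at the mitochondrial surface, at 20.1 ± 1.05 FPKM in KO and 20.5 ± 1.58 FPKM in WT. Akap12 was at 13.5 ± 1.71 FPKM in KO and 14.3 ± 1.13 FPKM in WT, and Akap11 at 13.5 ± 1.41 FPKM in KO and 13.9 ± 2.34 FPKM in WT. Of 11 further effectors, 7 were tested, with 2 higher and 5 lower and a median of -0.13. Rapgef3, the cAMP-activated exchange factor Epac1, was at 7.75 ± 1.396 FPKM in KO and 6.65 ± 1.55 FPKM in WT, and Rapgef2 at 10.2 ± 1.73 FPKM in KO and 10.3 ± 1.17 FPKM in WT. The channel genes Hcn3 and Hcn2 were lower in level, Hcn3 at 3.56 ± 0.52 FPKM in KO and 3.42 ± 0.61 FPKM in WT and Hcn2 at 2.85 ± 0.57 FPKM in KO and 3.32 ± 0.79 FPKM in WT.

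All 8 genes of the CREB family and its coactivators were tested, with 5 higher and 3 lower and a median of 0.03. The acetyltransferase gene Ep300 was at 16.7 ± 2.93 FPKM in KO and 16.3 ± 2.35 FPKM in WT, and Atf1, a close relative of CREB, at 11.4 ± 1.66 FPKM in KO and 11.7 ± 1.11 FPKM in WT, above Creb1 in every library on this average. Crtc2, a coactivator that the salt-inducible kinases phosphorylate, had the highest log2 difference of the 8, 0.33, from 9.92, 14.6 and 9.23 FPKM in KO and 10.1, 9.25 and 6.71 FPKM in WT, which overlapped. Over shared bases it was 0.14. Crtc1 was at 9.45 ± 0.58 FPKM in KO and 9.30 ± 1.15 FPKM in WT. Of the kinases themselves, Sik3 was at 35.5 ± 3.04 FPKM in KO and 34.6 ± 5.55 FPKM in WT and Sik2 at 8.85 ± 0.26 FPKM in KO and 8.84 ± 0.26 FPKM in WT. Sik2 varied little, unlike Sik1.

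Of 29 cAMP-responsive target genes, 26 were tested, with 14 higher and 12 lower in KO and a median of 0.0047. Vgf, a neuropeptide precursor gene, was at 208, 89.8 and 67.7 FPKM in KO and 233, 66.1 and 49.1 FPKM in WT. Replicate 1 of each genotype was more than 2 times any other library, and the genotypes overlapped, with a log2 difference of 0.24 over the whole gene and 0.05 over shared bases. Fos was at 39.9, 41.4 and 17.4 FPKM in KO and 51.5, 42.9 and 36.7 FPKM in WT, where its log2 difference of -0.48 became -0.0041 over shared bases. Irs2, an adaptor of the insulin receptor, was at 32.5, 30.6 and 20.9 FPKM in KO and 40.3, 29.7 and 21.5 FPKM in WT. Id1 went the other way, lowest in replicate 1, at 13.6, 21.1 and 38.1 FPKM in KO and 15.7, 32.1 and 28.5 FPKM in WT.

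**Figure D5:**
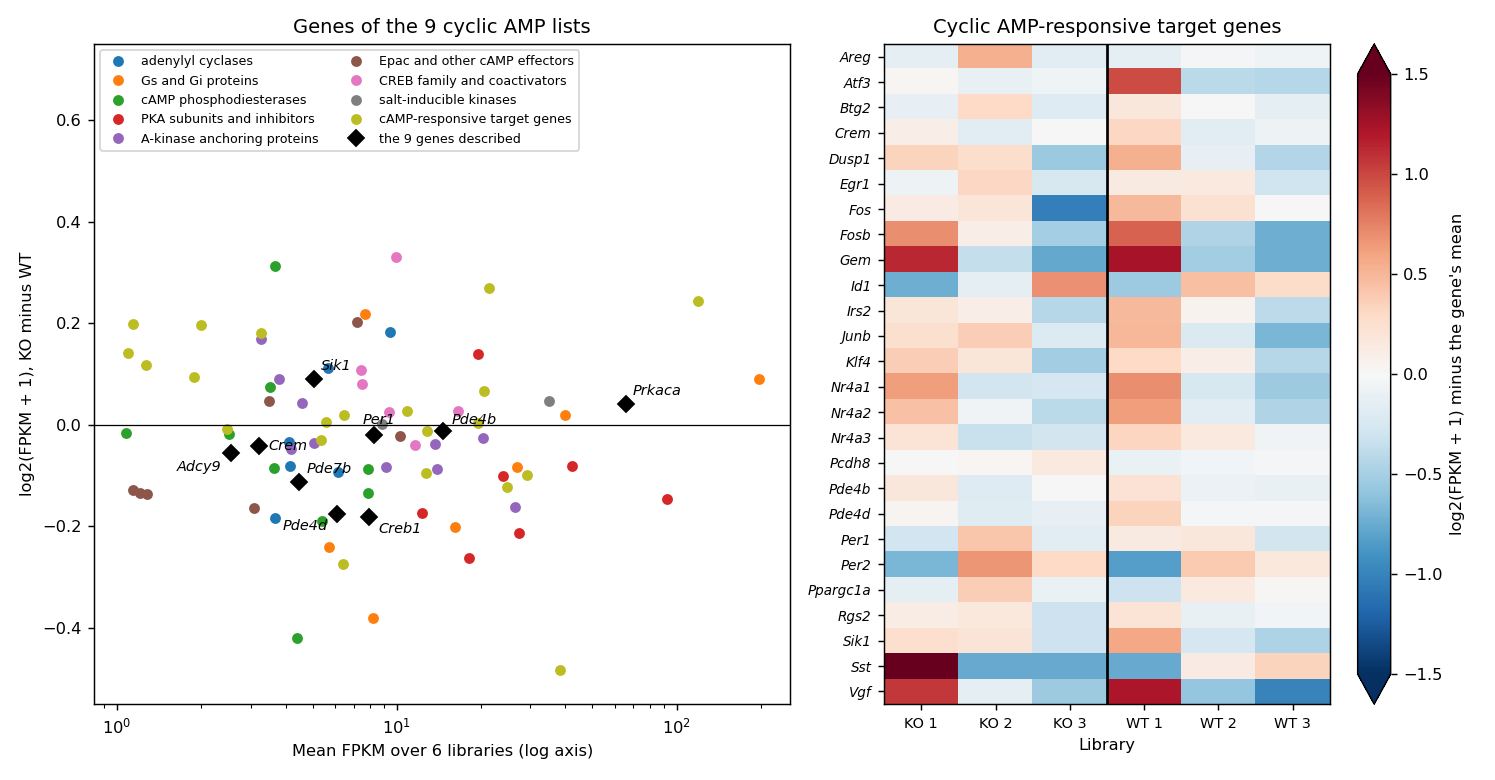
Left, log2 difference (KO minus WT) against mean FPKM (log axis) for the tested genes of the 9 cAMP lists, with the 9 genes described as black diamonds. Right, log2(FPKM + 1) of the 26 tested target genes minus each gene's mean, in 3 KO libraries (left) and 3 WT libraries (right); Vgf, Gem, Nr4a1 and Fosb are red in replicate 1 of each genotype.

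Replicate 1 of KO and of WT held the highest levels of the 6 for 14 of the 26 target genes, or 53.8%, and for 5 of the 9 genes described (Crem, Pde4b, Pde4d, Prkaca and Sik1), against 18.7% of all genes tested. Both counts hold Crem, Pde4b, Pde4d and Sik1. Over shared bases it was 12 of 26 and 4 of 9, without Prkaca, against 20.4%. Gem, a small GTP-binding protein gene, was at 10.998, 3.27 and 2.23 FPKM in KO and 11.9, 2.83 and 2.30 FPKM in WT. Nr4a1, an orphan nuclear receptor gene, was at 30.3, 15.8 and 16.1 FPKM in KO and 31.9, 16.2 and 12.9 FPKM in WT. Fosb was at 3.44, 1.94 and 0.92 FPKM in KO and 4.05, 1.00 and 0.65 FPKM in WT. The order was shown outside the target genes by Sik3, Prkaca, Prkar1b, Prkar2a, Pde3a, Atf1, Hcn2 and Akap1. The counts per list include the target genes Sik1, Pde4b, Pde4d and Crem. There were 2 of 3 salt-inducible kinases, 3 of 8 kinase A genes and 3 of 12 phosphodiesterases. The CREB family and coactivators had 2 of 8, further effectors 1 of 7 and anchoring proteins 1 of 10. Cyclases and G protein subunits had 0 of 7 each. Against the 18.7% of all genes, phosphodiesterases and the CREB family were at 25%, effectors at 14.3% and anchoring proteins at 10%. Instead, replicate 1 was lowest for 5 of 10 anchoring proteins, and for 2 each of the cyclases, effectors and CREB family. So it was for 3 of 26 target genes, 1 phosphodiesterase and 1 G protein subunit. The 5 astrocyte markers were also all lowest in replicate 1. The share of all genes lowest there was not counted. The summed level of these markers was 180, 387 and 657 FPKM in KO and 127, 493 and 505 FPKM in WT. Of 6 vascular and fibroblast markers, the endothelial genes Pecam1, Cdh5 and Cldn5 were highest in replicate 1 of each genotype and Pdgfrb was lowest there. Of 6 neuron markers, Rbfox3 and Stmn2 were highest there, Stmn2 at 19.7, 12.7 and 10.1 FPKM in KO and 68.0, 13.4 and 10.6 FPKM in WT. The part of these other cells in the order was not tested. What a replicate number stands for is not given in the labels.

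The genes most alike to each of the 9 across the 6 libraries, among 8313 compared, were listed by Pearson's r of log2(FPKM + 1), as a description over libraries that all genes share. They were Cpe (r = 0.996) and Pfdn6 for Pde4b, Tsg101 (r = 0.999) and Rnf146 for Pde4d, Socs4 (r = 0.989) and Klhl9 for Pde7b, and Igsf9b (r = 0.991) and Heca for Creb1. For Crem they were Atp6v1e1 (r = 0.994) and Rplp2, for Sik1 Nkd1 (r = 0.997) and Yars, for Per1 Taf6 (r = 0.995) and Ccdc130, for Prkaca Gabarapl1 (r = 0.987) and Epb41l1, and for Adcy9 Rab3a (r = 0.979) and Cacnb3. With 6 points such values are common: 38 genes for Adcy9 to 295 for Pde4b had an r above 0.90.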

How the data were processed

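Libraries were grouped by the genotype and number in their titles, 3 KO and 3 WT. Per the submitters' processing notes, the authors' tools included TopHat2 2.1.1, FastQC, Cuffdiff 2.2.1 and Cufflinks 2.2.1, with mm10 as the build. Each deposited file is 1 library's transcript assembly, in which the authors' values are FPKM and coverage per transcript, without gene names or read counts, so no count model was used and depth is known only relatively. The sources used here do not state whether libraries were stranded, so antisense reads cannot be told apart.

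Transcripts were assigned to genes by overlap with GENCODE M21 (basic set, mm10). For genes with 200 or more unshared exonic bases, the FPKM of transcripts of 300 nt or more was summed per base and averaged over these bases. The 12045 genes averaging at least 1 FPKM entered limma 3.58.1 (R 4.3.3) as log2(FPKM + 1), with trended empirical Bayes, two-sided tests and Benjamini-Hochberg adjustment at 0.05, a scale that understates changes of low genes. The code was tested on simulated data. Single values were tested with exact permutation. A start counted as assembled when a spliced transcript of the library reached its first exon.

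Deviations from the group mean were correlated between a KO and a WT library of the same number (r over genes, which are not independent, 0.369, 0.197 and 0.293; other combinations -0.277 to 0.0234), so numbers were taken to pair the libraries. Deviations cancel out within a group, so positive values for the same number push the other combinations down. The labels do not state a pairing. The main limma fit and the permutation tests did not use it, and the replicate block did. The 9 genes, the lists, the form of the gene value and the rule for named genes (the 9, the 4 highest others of each list, and the 2 genes most alike to each) were chosen with earlier results of these data known. Alternatives were 16 other settings. Sequences are from RefSeq (GRCm38.p6) and GENCODE M21.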

Additional observations from a re-analysis of the deposited data

How the results depend on the processing

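None of the 9 genes passed the threshold under any of 16 other settings (lowest limma adjusted p 0.809). Of 144 recomputed differences 125 kept their direction. Those that turned outside single left-out libraries were Pde4b with quantile scaling (0.0013), Pde4b, Crem and Per1 without both replicate 1 libraries (0.0030, 0.042 and 0.18) and Sik1 with FPKM summed over all transcripts (-0.062), where the median of all genes moved to -0.25. Crem was at -5.81 with that sum and -3.86 without a length minimum, where WT replicate 1 holds a 52-nt Crem piece listed at 1379914 FPKM. With 1 library left out, the log2 difference ran from -0.10 to 0.090 for Pde4b, -0.24 to -0.05 for Pde4d, -0.15 to -0.07 for Pde7b, -0.26 to -0.13 for Creb1, -0.14 to 0.10 for Crem, -0.12 to 0.40 for Sik1, -0.23 to 0.12 for Per1, -0.29 to 0.28 for Prkaca and -0.08 to -0.03 for Adcy9.

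Over all genes, 0 were called higher and 1 lower in KO. The count lower was 0 with pseudocounts of 0.1 and 5, with the replicate block, with the FPKM sum and over bases assembled in all 6 libraries, and 2 over assembled bases only. With 1 library left out, 0 to 11 were called higher and 1 to 6 lower, the most without KO replicate 1, and without both replicate 1 libraries 18 were higher and 11 lower; the cause was not tested. The replicate block changed no call among the 9 genes. Read numbers are unknown, so no counting error could be given, and a form at 0 may only be unassembled.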
